A study of Vigna radiata with 9 samples.

Results

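Plants slow the digestion of their proteins by insects and by their own enzymes with small inhibitor proteins. The Kunitz family is one large group of these inhibitors in legumes, in which most members bind the active site of serine proteases such as trypsin, chymotrypsin or subtilisin, and some act on other proteases. They are known from seeds, where they accumulate with storage proteins, and from leaves, where wounding and jasmonate, a wound hormone, induce many of them. Chymotrypsin inhibitor 3 is named after an inhibitor of winged bean seeds, and miraculin after the taste-modifying protein of the miracle fruit, which belongs to the same family by sequence. The gene names used here come from the descriptions deposited with the counts, and inhibitor activity was not measured.

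Described here are 2 genes of mung bean (Vigna radiata), LOC106755425 (chymotrypsin inhibitor 3) and LOC106765537 (miraculin), of 26966 genes in the count table. They were chosen by identifier because their levels differed among the groups, so that their values are given without a test, and tests are kept for other genes. LOC106755425 lies on a sequence not placed on a chromosome (Vradiata_ver6 build, positions 435112 to 435911, span 800 bp). LOC106765537 lies on chromosome 1 from 9512347 to 9513249 (span 903 bp).

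Leaf RNA of wild-type plants of the variety 'Lvfeng No.2' was sequenced in 3 groups, CK, LT and LT+S, with 3 libraries each. Plants of CK and LT were sprayed with water at the onset of flowering, and those of LT+S with uniconazole at 50 mg/L, a triazole growth retardant that inhibits gibberellin synthesis. LT and LT+S were moved to a phytotron 36 h after the spray and kept at 15 °C for 4 days, whereas CK stayed in the natural environment, so that cold and place of growth cannot be told apart in a comparison with CK. Each replicate was a pot. The labels number the compound of the 3 LT+S libraries S3305, S3306 and S3307 while the study's methods give S3307 alone, and they were taken as replicates of 1 treatment. The study's CK + uniconazole group had no library among these, so that uniconazole without cold could not be compared.

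The libraries held 19561896 to 21617340 counts, and 19304 genes had enough of them to be tested. Levels are given as CPM, the counts of a gene relative to the scaled size of its library, with TMM as the scaling method, and log2 fold changes come from a single edgeR fit of the 9 libraries. Neither strand nor multi-mapping rules of the counting were named, so that close paralogs of this family could share reads. Beside these levels, the summed CPM of 20 leaf mesophyll genes (chlorophyll a-b binding proteins and Rubisco small chains) lay between 59975 and 101475 in CK, between 6725 and 15357 in LT and between 15862 and 18277 in LT+S, and its part in the results was not tested. In such bulk leaf RNA, fewer cells of a type and less RNA per cell cannot be told apart.

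The chymotrypsin inhibitor gene was at a low level in CK and among the abundant transcripts of both cold groups. LOC106755425 had 98, 165 and 251 counts in the CK libraries, 9653, 9213 and 5005 in LT, and 30843, 17603 and 11731 in LT+S. Scaled, these were 5.69, 9.82 and 16.4 CPM in CK, 406, 420 and 204 CPM in LT, and 1318, 742 and 491 CPM in LT+S. The 3 groups did not overlap in any pair, with CK lowest and LT+S highest. By count its rank among all genes was between 9458 and 13339 in CK, between 228 and 627 in LT and between 55 and 196 in LT+S.

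Group means for LOC106755425 were 10.6 ± 5.42 CPM in CK, 343 ± 121 in LT and 850 ± 424 in LT+S (SD, n = 3 each). LT was thus 32.2-fold above CK, with a log2 fold change of 5.01 (SE 0.55) that was number 84 from the top of 19304. LT+S was 79.9-fold above CK (6.32, SE 0.58, number 33 from the top). Between single libraries these folds ran from 12.4 to 73.7 for LT over CK and from 29.9 to 232 for LT+S over CK. Both comparisons use the same CK libraries and are not independent of each other.

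With the cold in common, LT+S was 2.48-fold above LT for LOC106755425 (log2 fold change 1.31, SE 0.46). The nearest libraries were close, the lowest of LT+S at 491 CPM and the highest of LT at 420 CPM. LT+S 1 was 2.69 times LT+S 3, and without LT+S 1 the log2 fold change was 0.84. Groups that do not overlap with LT+S above LT were found for 7.21% of all tested genes, and the same for LT above CK and LT+S above CK for 27.8% and 28.2%.

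The miraculin gene was at a higher level in CK than the chymotrypsin inhibitor gene in CPM, with smaller folds over CK, a like fold between LT+S and LT, and much spread in LT. LOC106765537 had 630, 946 and 1260 counts in CK, 2769, 8288 and 1252 in LT, and 9004, 8916 and 16087 in LT+S. In CPM these were 36.6, 56.3 and 82.5 in CK, 116, 377 and 51.0 in LT, and 385, 376 and 673 in LT+S. LT 3 lay within the CK range and LT 2 within the LT+S range, so that LT overlapped both other groups. CK and LT+S did not overlap.

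For LOC106765537 the means were 58.5 ± 23.0 CPM in CK, 182 ± 173 in LT and 478 ± 169 in LT+S (SD, n = 3 each), and the coefficient of variation reached 95.1% in LT. The log2 fold change was 3.03 (SE 0.68) for LT+S against CK, or 8.17-fold. It was 1.64 (SE 0.65) for LT against CK, where 7 of 9 pairs of libraries had LT above CK. It was 1.40 (SE 0.64) for LT+S against LT, with 8 of 9 pairs higher. A single library set the last 2 values, since without LT 2 they were 0.53 and 2.51. In the order of levels, then, LT overlapped both of its neighbours for miraculin, whereas for the chymotrypsin inhibitor gene each step was free of overlap.

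**Figure D1:**
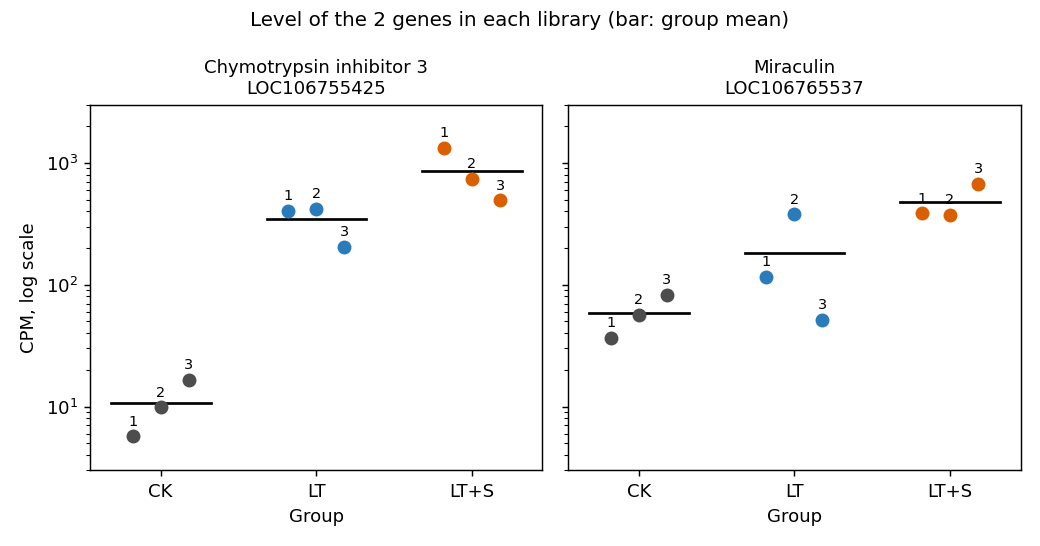
CPM (log axis) of chymotrypsin inhibitor 3 (LOC106755425) and miraculin (LOC106765537) in the 9 libraries, numbered by replicate, with bars at the group means. The chymotrypsin inhibitor gene lies between 5.69 and 16.4 CPM in CK and from 204 CPM upward in the cold groups, and miraculin in LT spreads from 51.0 to 377 CPM.

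Per kilobase of gene span, which allows a comparison between the genes, their order turned over. The level of LOC106755425 was 0.176, 0.197 and 0.225 times that of LOC106765537 in the CK libraries. This ratio was 3.93, 1.25 and 4.51 in LT and 3.87, 2.23 and 0.823 in LT+S. Miraculin was therefore the more abundant transcript of the pair in every CK library and in LT+S 3, and the chymotrypsin inhibitor in the other 5. Over all 9 libraries the log2 CPM of the pair had a Pearson r of 0.80, and over the 6 cold libraries 0.69, points that share treatment groups and are given as a description.

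The family is large in this genome. By their descriptions 38 genes were Kunitz-type inhibitors, 14 of them chymotrypsin inhibitor 3 and 10 miraculin. Of the 38, 10 had no count in any library, 9 had too few to be tested, and 19 were tested, the described pair among them. Together the 38 genes summed to between 204 and 291 CPM in CK, between 812 and 1613 in LT and between 1881 and 4137 in LT+S, from 0.0162 to 0.453% of all counts of a library. The pair made up between 20.7 and 34.02% of this sum in CK, between 31.4 and 54.1% in LT and between 41.2 and 61.9% in LT+S.

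In the cold groups most of the rest of the sum was another chymotrypsin inhibitor 3 gene, LOC106778722. It had 32.6, 36.7 and 44.5 CPM in CK, 980, 578 and 506 in LT, and 2015, 1181 and 574 in LT+S, and it rose in LT (log2 fold change 4.18, SE 0.48, adjusted p = 2.2e-04 from edgeR) and in LT+S (5.05, SE 0.50, adjusted p = 1.6e-04 from edgeR), both against CK. LT+S and LT overlapped (0.87, SE 0.42, adjusted p = 0.756 from edgeR). Its share of the family lay between 15.3 and 16.0% in CK, between 39.2 and 62.3% in LT and between 30.5 and 48.7% in LT+S. It and the described pair together held most of the family's counts in every cold library.

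The other 17 tested genes moved both ways in the cold, and 2 of them passed the test in neither direction in each comparison with CK. LT against CK gave 9 higher and 6 lower at an adjusted p below 0.05 from edgeR, where 22.8% of all tested genes were higher and 23.7% lower. LT+S against CK gave 10 higher and 5 lower, beside 19.7% and 21.9% of all genes. The median log2 fold changes of the 17 were 1.92 and 2.75, against 0.01 and 0.01 over all genes. The family was listed with earlier results of these data known.

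Among those that rose, LOC106779053 (chymotrypsin inhibitor ECI, named after a coral tree inhibitor) had between 0.232 and 0.393 CPM in CK, between 6.11 and 12.5 in LT and between 15.9 and 67.5 in LT+S. Its log2 fold change was 4.97 in LT (SE 0.70, adjusted p = 6.1e-04 from edgeR) and 6.79 in LT+S (SE 0.71, adjusted p = 2.1e-04 from edgeR). The gene spans 479 bp, from position 4 to 482 of an unplaced sequence, and whether it shares reads with close paralogs was not tested. The next 4 genes were also low in CK. The means of LOC106779489 (chymotrypsin inhibitor 3) were 0.862, 18.7 and 80.8 CPM in CK, LT and LT+S, with log2 fold changes of 4.44 and 6.55 against CK. LOC106779492, also chymotrypsin inhibitor 3, rose by 3.64 and 5.92, and LOC106778724 of the same name by 2.68 and 4.09. LOC106755429 (trypsin inhibitor A, as the classical soybean trypsin inhibitor) went from 2.54 to 14.1 and 50.5 CPM, by 2.47 and 4.31. All 8 of these values had an adjusted p of at most 0.0076 from edgeR.

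The genes that fell were of several kinds. LOC106755731 (alpha-amylase/subtilisin inhibitor, a class that in barley grain blocks both a starch-degrading enzyme and subtilisin) had between 33.8 and 63.6 CPM in CK, between 4.01 and 7.29 in LT and between 3.71 and 5.36 in LT+S. Its log2 fold changes were -3.07 (adjusted p = 1.1e-04 from edgeR) and -3.47 (adjusted p = 1.0e-04 from edgeR). LOC106766541 (trypsin inhibitor KTI1) had means of 20.6, 1.01 and 3.06 CPM in CK, LT and LT+S, a log2 fold change of -4.36 in LT (adjusted p = 0.0010 from edgeR) and of -2.75 in LT+S. LOC106766644 (trypsin inhibitor-like 2) fell in LT, from 22.0 to 1.25 CPM (-4.15, adjusted p = 0.013 from edgeR), and at 7.89 CPM in LT+S it did not pass the test against CK (-1.47, adjusted p = 0.239 from edgeR).

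A shared description did not go with a shared direction. Of the 8 other tested genes described as chymotrypsin inhibitor 3, 5 rose and 3 fell in each cold group against CK, at an adjusted p below 0.05 from edgeR. Over all tested genes 22.8% were higher and 23.7% lower in LT, and 19.7% and 21.9% in LT+S. LOC106779493 fell from 11.4 to 0.755 CPM in LT and 1.78 in LT+S, and LOC106780042 from 19.9 to 7.69 and 10.2 CPM. Unlike LOC106766541, the KTI1 gene LOC106766503 rose, from 0.122 to 0.869 and 2.31 CPM (2.78 and 4.18, adjusted p = 0.0025 and 3.6e-04 from edgeR). Unlike LOC106766644, the trypsin inhibitor-like 2 gene LOC106765790 rose in LT+S (2.75, adjusted p = 0.0081 from edgeR) and was not called in LT (0.35, adjusted p = 0.691 from edgeR).

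**Figure D2:**
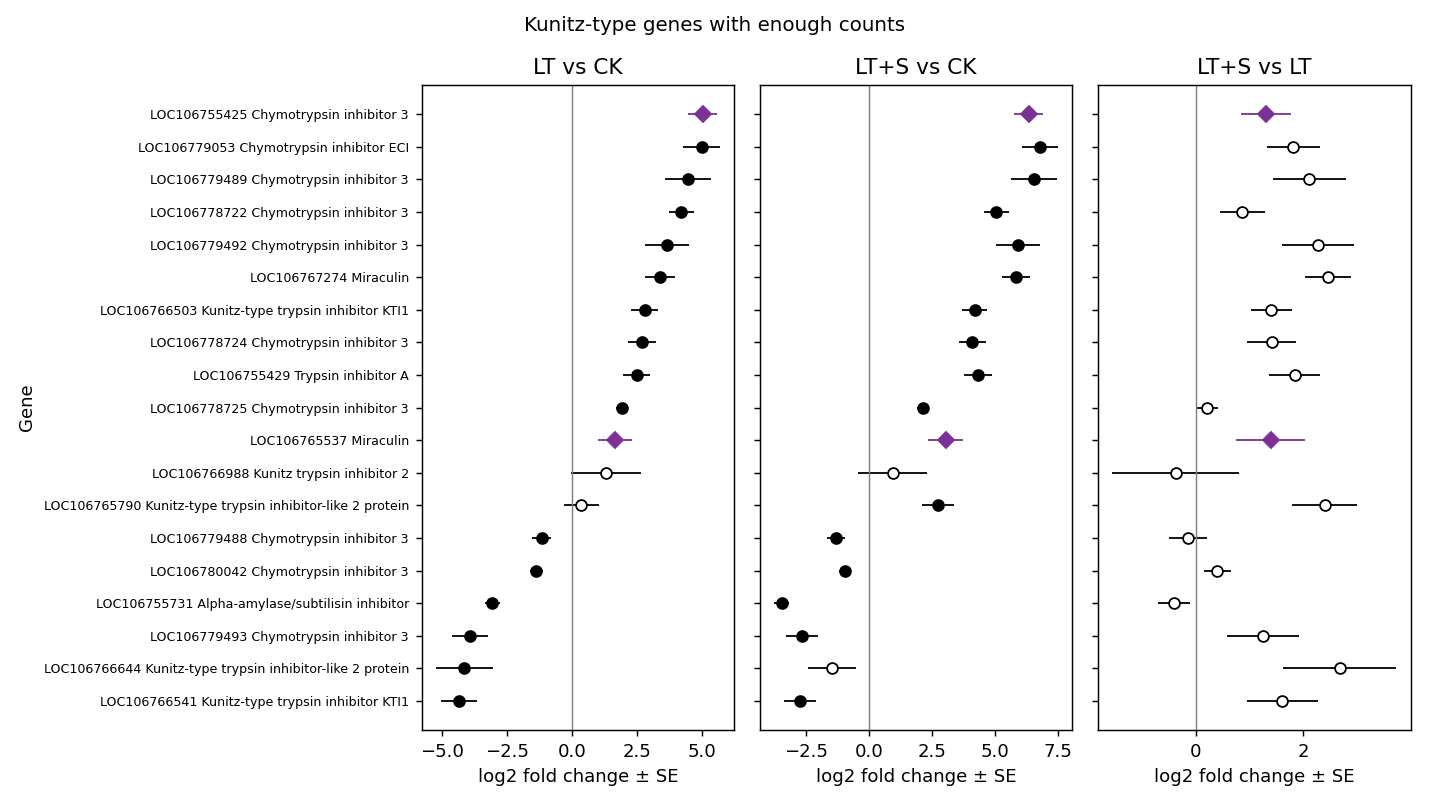
Log2 fold changes with SE of the 19 tested Kunitz-type genes for LT vs CK, LT+S vs CK and LT+S vs LT, ordered by the first. Diamonds are LOC106755425 and LOC106765537, shown without a test, and filled circles other genes at an adjusted p below 0.05 from edgeR, 15 of 17 in each comparison with CK and 0 in LT+S vs LT.

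Between the cold groups edgeR called 0 of the 17 genes, where it called 2 genes of all 19304 higher (0.0104%) and 1 lower (0.00518%). Before adjustment, 10 of the 17 had p below 0.05, all of them higher, beside 3.73% of all tested genes higher and 3.34% lower. DESeq2 called 5 higher and 0 lower at an adjusted p below 0.05, where it called 228 of all 19304 genes in either direction. The log2 fold change was positive for 14 of 17, with a median of 1.41 against -0.01 over all genes. Positive values came both from genes that had risen in LT, such as LOC106755429 (1.84), and from those that had fallen, such as LOC106766541 (1.61). The 5 genes called by DESeq2 were LOC106755429, LOC106765790, LOC106767274, LOC106779053 and LOC106779492.

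Within the cold groups the family genes were also ordered by library. In LT, replicate 3 was the lowest for both described genes and for 16 of the 17 others, where 36.8% of all tested genes had their lowest LT value there. In LT+S the library LT+S 1 was highest and LT+S 3 lowest for LOC106755425 and for 9 of the 10 other genes described as chymotrypsin inhibitors or trypsin inhibitor A, an order found in 17.8% of all tested genes. It was found in 1 of 7 other Kunitz genes and not in miraculin, for which LT+S 1 was 0.572 times LT+S 3. This split by description was made after the values were seen, and what sets these libraries apart was not tested.

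Over the 6 cold libraries some family genes followed one gene of the pair more closely and some followed both. There, LOC106755425 had a Pearson r of 0.99 with LOC106779053 and with LOC106778724, and 0.97 with LOC106779489 and LOC106779492. Miraculin had r of 0.95 with LOC106780042, 0.93 with LOC106766644 and 0.93 with LOC106766541, all of which were lower in LT than in CK. With the abundant LOC106778722 the chymotrypsin inhibitor gene had r of 0.87 and miraculin 0.26. Genes near both were LOC106765790 (0.90 with the chymotrypsin inhibitor gene and 0.88 with miraculin), LOC106779493 (0.87 and 0.84) and LOC106767274 (0.80 and 0.89). Over all 9 libraries the r of miraculin was -0.27 with LOC106780042, 0.07 with LOC106766644 and -0.21 with LOC106766541. LOC106779493 had -0.71 with the chymotrypsin inhibitor gene and -0.28 with miraculin over the 9. For the other pairs of genes named here r over the 9 was 0.62 or higher. These values are descriptive, and the points share libraries and the contrast between LT and LT+S, and over 9 libraries also those with CK.

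**Figure D3:**
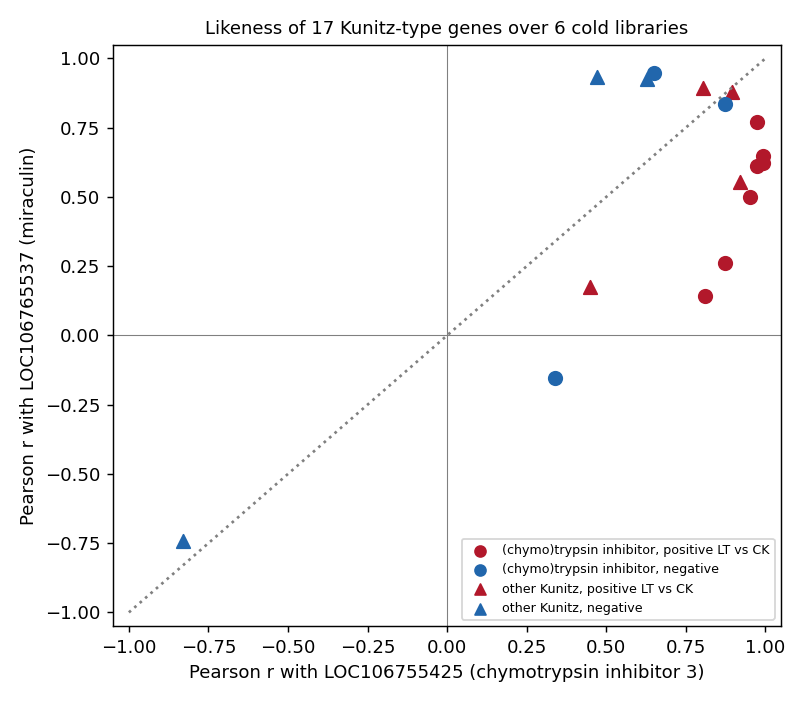
Pearson r of log2 CPM over the 6 cold libraries, for each of the 17 other tested Kunitz-type genes, with LOC106755425 (horizontal axis) and LOC106765537 (vertical axis). Circles are genes described as chymotrypsin inhibitors or trypsin inhibitor A, triangles the others, red or blue as the log2 fold change LT vs CK was positive or negative, and the dotted line marks equal r. LOC106778722 lies at 0.87 and 0.26, and LOC106780042 at 0.65 and 0.95.

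Among all tested genes, those most like LOC106755425 over the 9 libraries were LOC106779053 (r = 0.993), LOC106759953, which has no description (0.991), LOC106757328 (ALUMINUM SENSITIVE 3, a transporter-like protein of aluminium tolerance in Arabidopsis, 0.990), LOC106778722 (0.989) and LOC106769175 (Patellin-3, a lipid-binding protein of membrane traffic, 0.988). Family genes were thus 2 of the nearest 5. Those most like miraculin were LOC106767026 (geraniol 8-hydroxylase, a monoterpene cytochrome, 0.974), LOC106778162 (NTM1-like 9, a transcription factor of the NAC family, 0.965), LOC106771549 (YUCCA8, an enzyme of auxin synthesis, 0.964), LOC106777206 (HVA22, an abscisic acid-induced protein of barley, 0.963) and LOC106755431 (the protein kinase STY13, 0.962). No Kunitz gene was among these. The measure takes no account of size, and STY13 had mean levels of 22.9, 24.4 and 27.8 CPM in CK, LT and LT+S.

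On chromosome 1 the miraculin gene stands in an array of its kind, in which 8 of 11 genes had at most 1 count over all libraries. Within 86.2 kb, from 9436657 to 9522841, lie 11 Kunitz-type genes, 10 of them described as miraculin. Of these, 6 had no count in any library, 2 had 1 count over all 9 libraries, and 3 were tested. Counts over the 3 libraries of a group were 2836, 12309 and 34007 for LOC106765537 in CK, LT and LT+S. They were 9, 134 and 756 for LOC106767274, the miraculin gene 8663 bp after it, and 12, 44 and 34 for LOC106766988 (Kunitz trypsin inhibitor 2) at the other end of the array.

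LOC106767274 had 0.290, 0.119 and 0.131 CPM in CK, 1.55, 3.14 and 1.14 in LT, and 12.4, 6.49 and 13.01 in LT+S, with no overlap between any of the groups. It rose in LT (log2 fold change 3.37, SE 0.58, adjusted p = 0.0016 from edgeR) and in LT+S (5.83, SE 0.57, adjusted p = 1.5e-04 from edgeR) against CK, and the value for LT+S against LT was 2.45 (SE 0.43, adjusted p = 0.121 from edgeR). Like LOC106765537 it was highest of the LT libraries in LT 2 and of the LT+S libraries in LT+S 3. Genes of other families next to the miraculin gene were nearly or wholly without counts. LOC106757087 (a pentatricopeptide repeat protein of the class that processes organelle RNA), 108 bp before it, had means of 0.289 to 0.493 CPM, and LOC106757099 (receptor kinase TMK1), 1094 bp after it, had 0 counts. The neighbours of LOC106755425 were not analysed because the sequence that carries it is not named in the gene table used.

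**Figure D4:**
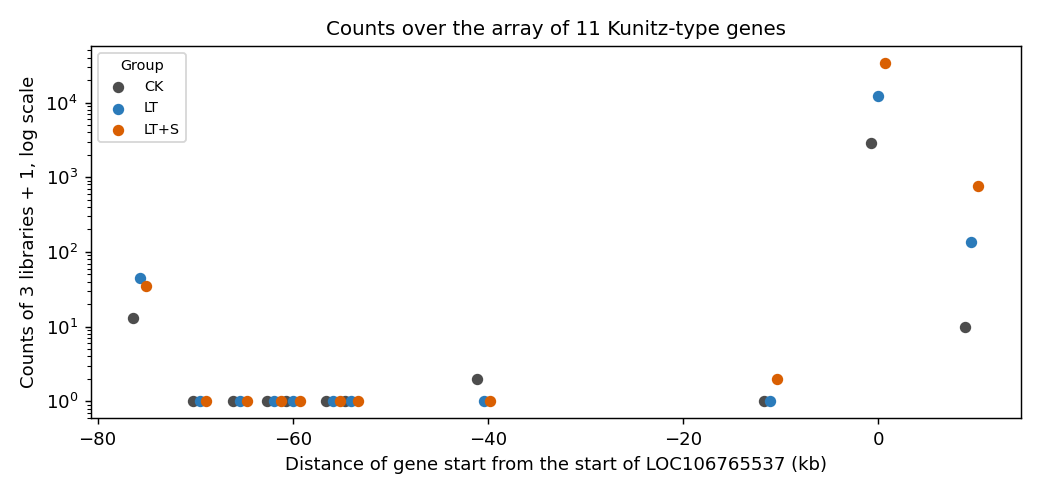
Counts summed over the 3 libraries of each group, plus 1 (log axis), of the 11 Kunitz-type genes of the chromosome 1 array, by distance of the gene start from that of LOC106765537 in kb. Groups are drawn slightly apart, and the largest sums are those of LOC106765537 at 0 kb (2836, 12309 and 34007 in CK, LT and LT+S).

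Markers of seed, where Kunitz inhibitors are abundant, differed among themselves. Of 15 genes of storage globulins and 2S albumin 9 had no count, and none of the others exceeded 17 counts in a library. The summed CPM of 36 seed genes lay between 109 and 166 in CK, between 151 and 199 in LT and between 232 and 233 in LT+S, and 14 of them had no count. The highest mean was that of LOC106769683 (albumin-2), which lay between 55.3 and 163 CPM in CK, between 126 and 188 in LT and between 176 and 206 in LT+S, and was not called against CK (adjusted p = 0.157 for LT and 0.0679 for LT+S, both from edgeR). LOC106767816 (oleosin Bn-III, an oil body protein) was called higher than in CK in LT, by 4.96 on the log2 scale (adjusted p = 7.2e-04 from edgeR), and in LT+S, by 3.86 (adjusted p = 0.0033 from edgeR), at means of 0.118, 3.94 and 1.84 CPM in CK, LT and LT+S. The other lists were 62 flower and pollen genes (121 to 162, 269 to 315 and 157 to 181 CPM), 13 root nodule genes (28.5 to 37.1, 36.7 to 59.4 and 37.7 to 39.97 CPM) and 56 vascular genes (245 to 827, 395 to 731 and 510 to 565 CPM). No count was found for 29, 5 and 4 of them, in this order. In the flower and pollen list, LOC106755342 (agamous-like MADS-box protein AGL8) alone had means of 78.65, 182 and 83.1 CPM in CK, LT and LT+S. The part of these marker lists in the results was not tested.

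Inhibitors outside the Kunitz family were few. No description matched Bowman-Birk inhibitors, the only potato type I gene had no count, and 11 others, 10 of them cystatins, which inhibit cysteine proteases, were tested. In LT against CK 2 were higher and 1 lower, and in LT+S against CK 2 were higher and 0 lower, where 22.8% of all tested genes were higher and 23.7% lower in LT, and 19.7% and 21.9% in LT+S. For LT+S the numbers with p below 0.05 before adjustment were 4 and 0, and DESeq2 called 4 and 0. The median log2 fold changes were -0.06 and 0.43. Without LT 3 the first count was 1 in all, and without CK 2 or without LT+S 2 the second was 0. The most abundant, LOC106765170 (cysteine proteinase inhibitor 6), had 74.9 to 88.7 CPM in CK and 97.5 to 110 in LT (log2 fold change 0.35, adjusted p = 0.0457 from edgeR, a call lost in 8 of the alternative settings).

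Proteases, the possible targets, were described in 4 lists. Against CK, 22.8% of all tested genes were higher and 23.7% lower in LT, and 19.7% and 21.9% in LT+S. Of 24 tested cysteine proteases 14 rose and 1 fell in LT against CK (median log2 fold change 0.87), and 12 rose and 2 fell in LT+S (median 0.65), or 9 in all without CK 2. Without CK 2 the genes called in LT+S against CK also went from 8042 to 5886 over all tested genes. LOC106762220 (cysteine proteinase 15A, a papain-like enzyme) rose from 220 ± 8.32 CPM in CK to 633 ± 62.4 in LT (SD, n = 3 each; a log2 difference of 1.52, adjusted p = 7.0e-05 from edgeR) and stood at 592 ± 39.9 in LT+S. LOC106769005 (RD21A, a drought-responsive vacuolar protease in Arabidopsis) rose from 8.08 to 38.4 CPM (2.25, adjusted p = 3.1e-04 from edgeR). LOC106755688 (SAG39, named for leaf senescence in rice) fell, from 1.93 to 0.0844 CPM (-4.41, adjusted p = 1.1e-04 from edgeR).

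Subtilisin-like proteases, serine proteases of the cell wall, were called at or below the rates of all genes, 5 higher and 6 lower of 36 in LT and 7 and 6 in LT+S, both against CK, the latter 8 in all without CK 2. Their medians were -0.34 and 0.26. Over all genes, 5886 were called in LT+S against CK without CK 2, and 8042 with all libraries. In LT+S against LT, however, 33 of 36 had a positive log2 fold change, with a median of 0.39, where 48.9% of all tested genes were positive. edgeR and DESeq2 each called 0 of them, and 5 had p below 0.05 before adjustment, all of them higher. LOC106769359 (SBT3.5) fell from 60.5 to 8.06 CPM in LT (-2.91, adjusted p = 0.0010 from edgeR). Aspartic proteases gave 10 higher and 12 lower of 54 in LT and 9 and 4 in LT+S (medians -0.09 and 0.05). Serine carboxypeptidases gave 7 and 13 of 37 in LT and 12 and 8 in LT+S (medians -0.13 and 0.26). Beside these 2 lists, all tested genes had 22.8% higher and 23.7% lower in LT, and 19.7% and 21.9% in LT+S.

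**Figure D5:**
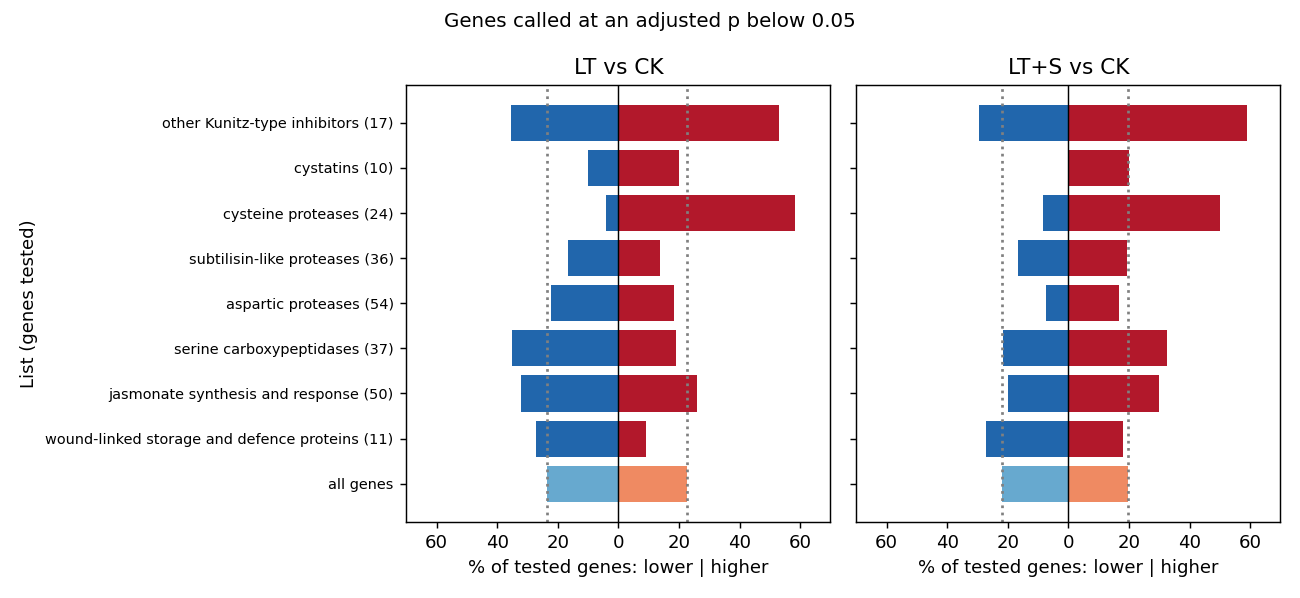
Percent of the tested genes of each list (number in parentheses) at an adjusted p below 0.05 from edgeR, higher to the right and lower to the left, for LT vs CK and LT+S vs CK, which share the CK libraries. Dotted lines mark all tested genes (22.8% higher and 23.7% lower in LT, 19.7% and 21.9% in LT+S), and the longest bars to the right are the cysteine proteases (14 of 24) in LT and the other Kunitz genes (10 of 17) in LT+S.

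Jasmonate genes, whose pathway is known to induce Kunitz inhibitors, were called in both directions. Of 50 tested, 13 rose and 16 fell in LT and 15 rose and 10 fell in LT+S, both against CK, with medians of 0.08 and 0.20. Over all tested genes 22.8% were higher and 23.7% lower in LT, and 19.7% and 21.9% in LT+S. LOC106762110 (allene oxide synthase 2, an early step of synthesis) rose from 21.4 to 86.2 CPM in LT (by 2.01 on the log2 scale, adjusted p = 1.9e-04 from edgeR), and LOC106769287 (TIFY 6B, a repressor of the response) from 83.6 to 225 CPM (1.43, adjusted p = 8.4e-05 from edgeR). LOC106756179 (a 13-lipoxygenase, the enzyme that opens the pathway in the chloroplast) fell from 836 ± 263 CPM in CK to 226 ± 80.9 in LT (-1.89, adjusted p = 0.0018 from edgeR), and at 633 ± 118 in LT+S it did not overlap with LT (SD, n = 3 each; 1.49, adjusted p = 0.285 from edgeR).

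Among 11 tested wound-linked storage and defence genes, LOC106773605 (stem 28 kDa glycoprotein, a vegetative storage protein of soybean leaves) had between 2.61 and 4.11 CPM in CK, between 3.75 and 16.4 in LT and 64.6, 53.9 and 53.2 in LT+S. It rose in LT against CK, by 1.74 on the log2 scale (adjusted p = 0.016 from edgeR). In LT+S it rose by 4.002 against CK (adjusted p = 4.6e-04 from edgeR), while LT+S against LT had a value of 2.27 (adjusted p = 0.206 from edgeR). The list as a whole gave 1 higher and 3 lower in LT and 2 and 3 in LT+S, with medians of -0.05 and 0.02. Lower in LT than in CK were LOC106752962 (polyphenol oxidase, from 362 to 92.2 CPM, -1.97) and 2 acid phosphatase 1 genes. These were LOC106764502 (-0.91) and LOC106757154 (-3.71). All 3 had an adjusted p of at most 0.0016 from edgeR. Of all tested genes, 22.8% were higher and 23.7% lower in LT, and 19.7% and 21.9% in LT+S. In LT+S against LT edgeR called 0 genes of each of the lists of other inhibitors, proteases, jasmonate and wound-linked genes. With p below 0.05 before adjustment the numbers higher and lower were 4 and 1 of 11 other inhibitors, 1 and 4 of 24 cysteine proteases, 8 and 0 of 54 aspartic proteases, 7 and 1 of 37 serine carboxypeptidases, 7 and 0 of 50 jasmonate genes and 3 and 1 of 11 wound-linked genes, beside 3.73% and 3.34% of all tested genes. DESeq2 called 1 other inhibitor and 1 cysteine protease lower, and 1 aspartic protease, 2 serine carboxypeptidases, 3 jasmonate genes and 2 wound-linked genes higher. Over all 19304 tested genes DESeq2 called 228 in either direction.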

How the data were processed

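The 9 leaf libraries, 3 a group, were processed by the authors, who used Trimmomatic for trimming, hisat2 for alignment to Vradiata_ver6 and htseq-count for counting. Values were deposited as raw counts per gene. Besides these, bowtie2 and eXpress appear in the methods, and CASAVA 1.8 and Cufflinks in the submitters' notes. Strand setting and multi-mapping are not given in the sources used here. Of 26966 genes 3736 had no count. 26961 identifiers matched the RefSeq gene table of Vradiata_ver6, which gave positions.

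The test was that of edgeR 4.0.16, run in R 4.3.3 (filterByExpr, TMM, glmQLFit and glmQLFTest by group on 9 libraries, 2-sided, Benjamini-Hochberg over 19304 genes). SE is the absolute log2 fold change over the square root of F. The study's methods name DESeq2 (1.42.0 here), which was an alternative, as were its size factors, a filter at a mean of 1 CPM or none, a prior count of 2, 6 libraries, a replicate block and leaving out each library. Libraries of the same number correlated between -0.296 and 0.267 in their deviations from group means, and those of unlike numbers between -0.266 and 0.364. With 3 libraries a group these values cannot decide whether equal numbers mark a shared block. No library was a copy of another. For correlations, log2 CPM had a prior count of 2.

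The members, lists and alternatives were chosen with earlier results of these data known, and lists were matched to descriptions. Named were the 2 genes; Kunitz genes called with at least 5 CPM in the higher group (6 per direction) or at least 20 CPM over all libraries; from the genes of each other list with the smallest p (3 for LT vs CK, 2 for LT+S vs LT); 2 neighbours on each side; and 5 genes most alike. LOC106765790, LOC106766503, LOC106766988 and LOC106779488 were named after their values were seen. The unadjusted count of Kunitz genes for LT+S vs LT was followed through the alternatives after the data were seen. The procedure was also run on simulated counts in which CK and LT had equal means, unlike these data. Its outcome is not given here, so it does not bear on the calls in LT+S vs LT. Figures were drawn with matplotlib 3.10.9. Soybean and protein or promoter sequences were not analysed here.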

Additional observations from a re-analysis of the deposited data

How the results depend on the processing

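The log2 fold changes of LOC106755425 kept their direction in every alternative and, without 1 library, ran from 4.71 to 5.47 for LT vs CK, 5.86 to 6.77 for LT+S vs CK and 0.84 to 1.59 for LT+S vs LT. For miraculin they ran from 0.53 (without LT 2) to 2.08 for LT vs CK, 2.70 to 3.36 for LT+S vs CK and 0.95 to 2.51 (without LT 2) for LT+S vs LT. Of the other 17 Kunitz genes, 14 to 15 were called in LT vs CK and in LT+S vs CK under all alternatives. In LT+S vs LT DESeq2 called 5 of them, 1 other inhibitor, 1 cysteine protease and 3 jasmonate genes, where edgeR called 0 of each, and 228 of all genes, where edgeR called 3. Their unadjusted count of 10 higher was 8 to 12 over the alternatives.

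Over all genes LT+S vs LT gave 0 with 6 libraries, 6 with the replicate block and 0 to 7 without 1 library. Subtilisin-like proteases numbered 7 in place of 11 in LT vs CK with 6 libraries and also 7 with the replicate block, and 8 to 14 without 1 library in LT+S vs CK. Other inhibitors numbered 1 to 3 without 1 library in LT vs CK. In LT+S vs CK they numbered 1 at a mean of at least 1 CPM, 4 with DESeq2 and 0 to 3 without 1 library. Over all genes DESeq2 called 8749 in LT+S vs CK, where edgeR called 8042. Cysteine proteases numbered 9 to 12 in LT+S vs CK without 1 library. The cause of these differences was not tested.

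Reversals were seen in 2 low genes. LOC106766988 had log2 fold changes in LT vs CK from -1.85 (without LT 1) to 3.28 without 1 library, against 1.30 with all. In LT+S vs LT, where it was -0.37, it had 0.14 with the replicate block and -0.93 to 2.77 (without LT 1) without 1 library. LOC106779488 had -0.35 to 0.34 (without LT 1) in LT+S vs LT, against -0.14. DESeq2 size factors moved the median of all genes by at most 0.0069.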
